A study of Drosophila melanogaster with 4 samples.

Results

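The regions described here are the 649 clusters of enriched H3K36me3 on 2L, the left arm of the second chromosome of Drosophila melanogaster. They were taken from the authors' combined list for the replicate set as every enriched cluster placed on 2L, and they make up 16.1% of its 4026 clusters. H3K36me3, histone H3 trimethylated on lysine 36, was mapped by ChIP-seq, the sequencing of DNA precipitated with an antibody, in nuclei from heads of adult Oregon-R flies. The samples were 2 libraries precipitated with an antibody to H3K36me3 and 2 libraries of input chromatin, all wild type and of mixed adult stage. Heads were sieved from flies kept in population cages, so each library pools many animals, whose number and sex ratio are not stated. The lists of the precipitated libraries, replicate 1 and replicate 2, held 636 and 649 clusters on 2L. Separate collections for the replicates are not stated in the labels, so an SD with n = 2 measures the spread between these libraries only, which may be technical.

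H3K36me3 is laid down by the methyltransferase Set2, which travels with elongating RNA polymerase II, and by related enzymes of the NSD family. It is known as a mark of the bodies of transcribed genes, usually stronger towards their 3′ ends, and is largely missing from silent chromatin. A cluster here is a stretch that the authors called as enriched, so a row of close clusters can be several marked genes or a long marked gene that was called in pieces. A fly head holds neurons, photoreceptors, glia, fat body and muscle. In whole heads, a mark on few of the cells and a weak mark on many of them cannot be told apart. Coordinates are on release 5 of the fly genome, with the lowest at the telomere end of the arm and the highest towards the centromere. No gene is named for any cluster and no sequence is printed, because no genome or annotation of release 5 was used here. For the same reason head tissue could not be checked against its marker genes.

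Most of 2L lay outside the clusters. The combined list covered 4.26 Mb of the 23.0 Mb arm, or 18.5%, and the replicates covered 17.6% and 17.7%, a mean of 17.7% ± 0.0806 (SD, n = 2). The arm makes up 19.3% of the length of the 5 long arms and held 17.0% of their clusters. It had 28.2 clusters per Mb in the combined list, and 27.6 and 28.2 in replicates 1 and 2. Marked sequence reached close to both ends of the arm. The first cluster began at 9642, was found in both replicates and scored 1.25 ± 0.0773 there (SD, n = 2). The last ended at 22971812, 39.7 kb before the end of the assembled arm, and was found in replicate 2 only.

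The coverage of 2L was below that of the other long arms together. It was 17.7% ± 0.0806 on 2L and 20.2% ± 0.0152 on 2R, 3L, 3R and X combined (SD, n = 2 each), a difference of -2.56 percentage points ± 0.0654 (SD, n = 2). The difference was -2.61 points in replicate 1 and -2.51 in replicate 2, and so far larger than the spread between libraries. With 2 libraries an exact paired permutation test, two-sided, gave p = 0.5, the smallest it allows, so no test supports a general difference. The arm with the nearest coverage was 3L, with 18.2% ± 0.0779 (SD, n = 2).

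The arms differed more in the number and spacing of clusters than in their width. The median width was 5.06 and 4.95 kb on 2L in replicates 1 and 2, against 4.94 and 4.93 kb on the other arms together. The 2L clusters numbered 27.6 and 28.2 per Mb, against 32.1 and 32.4 per Mb on the others. The nearest arm was 3L, with 29.4 and 30.1 per Mb. The median gap between neighbours was 7.15 and 7.10 kb on 2L, against 5.95 and 5.84 kb on the others together. It was 6.67 and 6.81 kb on 3R and 6.51 and 6.43 kb on 3L, nearer to 2L. On 2R it was 5.89 and 5.58 kb, and on X 4.84 and 4.99 kb. Empty stretches of at least 100 kb held 46.5% and 45.0% of 2L, against 38.9% and 38.4% of the other arms. X and 3L came close to 2L in this, as such stretches held 43.2% and 42.9% of X, and 42.9% and 42.1% of 3L. The median score was 1.64 and 1.65 on 2L, against 1.72 and 1.69 on the others. These are descriptions of both libraries, since clusters and gaps are not replicates.

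**Figure D1:**
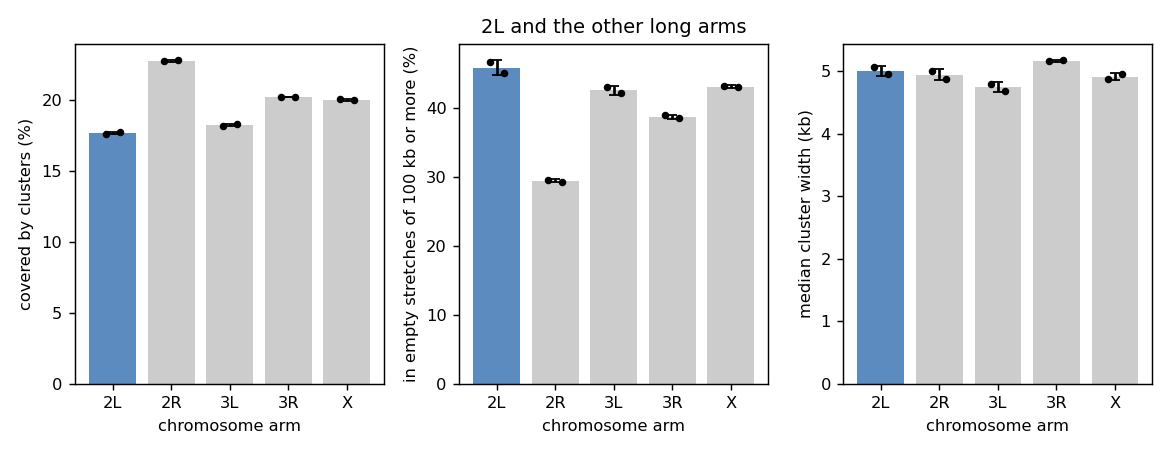
Share covered by clusters (%), share lying in empty stretches of at least 100 kb (%) and median cluster width (kb) on 2L and the other long arms. Bars are means of the 2 precipitated libraries, points the libraries and error bars the SD (n = 2). 2L has the lowest coverage (17.7%) and the highest share in long empty stretches (45.8%), while its median width (5.01 kb) lies among those of the other arms.

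Coverage along 2L was uneven, and a poorly marked region lay between about the middle and the centromere end. Of 5 equal stretches of 4.60 Mb, counted from the telomere, the first was covered to 19.2% ± 0.00104, the second to 22.2% ± 0.0828 and the third to 20.2% ± 0.178 (SD, n = 2 each). The fourth, 13806927 to 18409235, was covered to 9.78% ± 0.101, and the fifth to 17.0% ± 0.0425 (SD, n = 2 each). Every stretch was ranked alike in both replicates, and the drop in the fourth was many times the spread between them. Low coverage was not confined to the fourth. In windows of 1 Mb, the third fell to 13.7% ± 0.283 from 11 to 12 Mb and to 11.4% ± 0.0815 from 12 to 13 Mb (SD, n = 2 each).

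The fourth stretch had fewer and lower-scoring clusters, with a slightly lower median width. It held 78 clusters of the combined list, against 129 to 168 in each of the others. Their median width was 4.65 kb, against 4.82 to 5.87 kb, and their median score was 1.31, against 1.43 to 1.76. The median gap there was 12.7 kb, against 4.70 to 7.94 kb, and 65.5% of the stretch lay in empty stretches of at least 100 kb, against 30.1% to 46.5%. It had 0 runs of at least 5 close clusters, while each of the others had 2 to 5. The stretch was not evenly poor: its window from 16 to 17 Mb had 30 clusters and was covered to 18.3% ± 0.0279 (SD, n = 2), above the median of 16.9% over all windows of the arm. Its window from 15 to 16 Mb had a median cluster width of 6.59 kb, above the 5.14 kb of the whole arm in the combined list.

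The most and the least covered of the 5 equal stretches of 2L differed by 12.4 points, against 4.98 to 7.88 points on 2R, 3L, 3R and X divided in the same way. The lowest on any of those arms was 14.6%, on 3L. This division was chosen with coverage along the arm already known, so it is a description with no test.

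In 23 windows of 1 Mb the mean coverage of the replicates ran from 3.55% to 32.8%, a 9.24-fold range with a median of 16.9%. On the other long arms the same range was 2.71-fold on 2R, 3.24-fold on X, 4.38-fold on 3R and 11.4-fold on 3L, where the lowest window was a short end of the arm. Between replicates a window of 2L changed by 0.151 points at the median and 0.441 points at most. The most covered windows were 10 to 11 Mb with 32.8% ± 0.249, 8 to 9 Mb with 27.6% ± 0.312 and 6 to 7 Mb with 27.2% ± 0.140 (SD, n = 2 each). The least covered were 14 to 15 Mb with 3.55% ± 0.264, 17 to 18 Mb with 6.98% ± 0.206 and 22 to 23 Mb with 10.4% ± 0.0336 (SD, n = 2 each). The last of these lies at the centromere end of the assembled arm.

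Windows differed widely in the number of clusters, which ran from 10 to 50 per window in the combined list, with a median of 28. Across the 23 windows, Spearman's rho of coverage with the number of clusters was 0.848, with their median width 0.400 and with their median score 0.404. The windows share both libraries, and these values are given as descriptions. Coverage rose and fell from window to window, and rho between a window and the next was -0.216. A trend along the arm was not tested. The window from 10 to 11 Mb, the most covered, still had 45.6% of its length in long empty stretches.

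**Figure D2:**
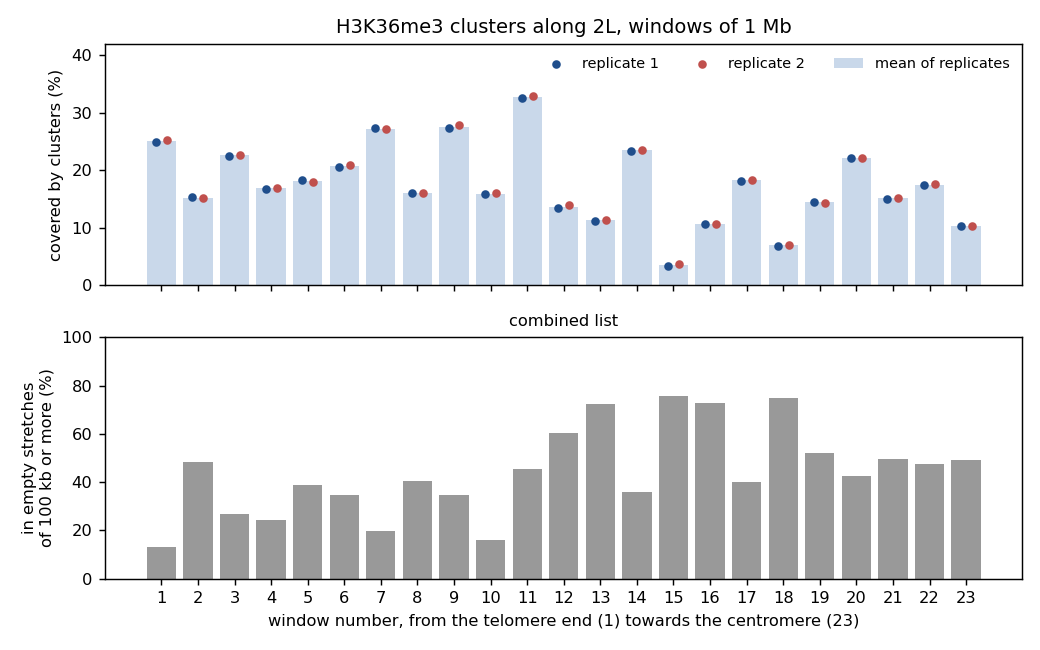
Upper panel, share of each 1 Mb window of 2L covered by clusters (%), with bars for the mean of the replicates and points for each replicate. Lower panel, share of each window in empty stretches of at least 100 kb (%) in the combined list. Coverage peaks at 32.8% in window 11 and is lowest at 3.55% in window 15, where 75.5% lies in long empty stretches, and the replicate points nearly coincide.

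Clusters on 2L were broad and a small share of them held much of the marked sequence. In the combined list the width had a 5th percentile of 1.81 kb, a median of 5.14 kb and a 95th percentile of 15.8 kb. The 160 widest clusters, 24.7% of all, each at least 8.50 kb wide, held 50% of the covered bases. The 29 clusters of 16 kb or wider were 4.47% of all and held 15.2% of the covered bases. The 44 clusters narrower than 2 kb were 6.78% of all and held 1.61%.

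The authors' score, whose scale is unknown here, was higher for wider clusters. The median score was 0.341 below 2 kb, 0.955 from 2 to 4 kb, 1.73 from 4 to 8 kb, 1.90 from 8 to 16 kb and 2.06 at 16 kb or wider. Width and score were related with a Spearman's rho of 0.722 in replicate 1 and 0.726 in replicate 2, across clusters of a library. None of the 44 clusters narrower than 2 kb scored above 0.516. Intermediate widths were mixed: clusters of 4 to 8 kb scored from 0.496 to 2.61, and this class held the highest score of the arm.

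**Figure D3:**
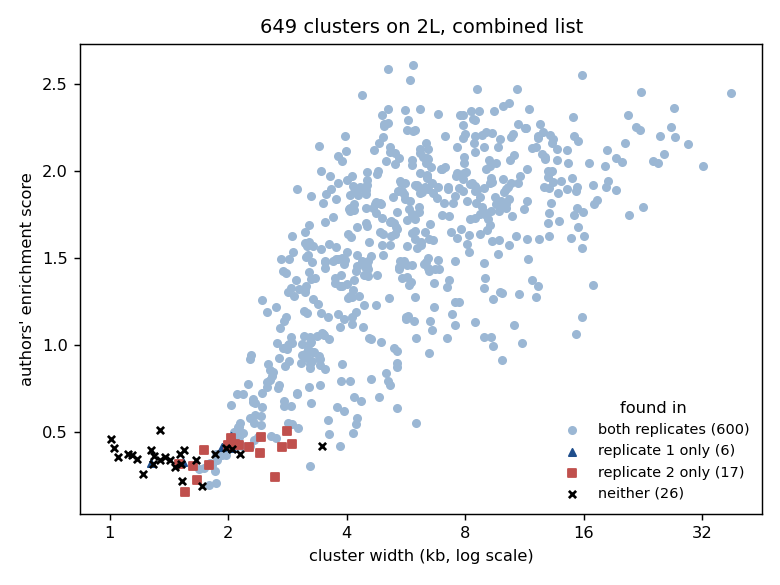
Width (kb, log scale) against the authors' enrichment score for the 649 clusters of 2L in the combined list, marked by the replicates in which they were found. Clusters found in neither replicate (26) sit at the lower left, with no score above 0.516, and the highest score (2.61) belongs to a cluster of 5.89 kb.

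The widest clusters were seen in both replicates but not always in a single piece. The widest, 8043382 to 8081330, spanned 37.9 kb, and replicates 1 and 2 had single clusters of 38.0 and 37.8 kb there, with scores of 2.47 and 2.43. The next, 13363242 to 13395464, spanned 32.2 kb. It was a single cluster in replicate 1, while replicate 2 had clusters of 15.2 and 16.8 kb there. The third, 19487312 to 19516796, spanned 29.5 kb and was a single cluster in each replicate, of 29.5 and 29.3 kb. The fourth, 16890896 to 16918220, spanned 27.3 kb and was again divided in replicate 2, into 8.53 and 18.4 kb. The fifth, 2133556 to 2160712, spanned 27.2 kb and was single in both replicates, with 27.1 and 27.0 kb. Of all 649 clusters, 47 overlapped more than 1 cluster in at least 1 replicate, and 19 did so in both. Clusters of 20 kb or wider numbered 17 in the combined list, 12 in replicate 1 and 9 in replicate 2.

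The highest scores were not on the widest clusters. They belonged to 20735170 to 20741056 (5.89 kb), with replicate scores of 2.55 and 2.67, and 10858342 to 10863422 (5.08 kb), with 2.66 and 2.59. Then came 5907728 to 5923556 (15.8 kb), with 2.60 and 2.52, and 10836952 to 10842736 (5.79 kb), with 2.54 and 2.56. The fifth was 10280564 to 10291386 (10.8 kb), with 2.52 and 2.46. The order of these clusters differed between the replicates, so it is not resolved. The clusters at 10280564, 10836952 and 10858342 lay in the most covered window, and the one at 10858342 faced an empty stretch of 101 kb on its centromere side.

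The lowest scores fell on clusters narrower than 2 kb, and replicates often lacked them. The lowest, 5269078 to 5270632, had a score of 0.155 and was found in replicate 2 only. Those at 17601620 to 17603336 (0.194) and 15273344 to 15274872 (0.218) were found in neither replicate. The remaining ones, 22734756 to 22736542 (0.197) and 298760 to 300618 (0.208), were found in both.

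Gaps between neighbouring clusters spread over a wide range of lengths. The median gap was 7.025 kb in the combined list and the mean was 28.9 kb, with an SD 1.93 times the mean. Of 648 gaps, 292 (45.1%) were at most 5 kb and 55 (8.49%) were over 100 kb. The short gaps made up little of the unmarked arm and the long ones most of it: gaps of up to 5 kb held 0.253%, 0.541% and 1.85% of the bases between clusters, for those up to 1 kb, from 1 to 2 kb and from 2 to 5 kb. The 55 longest held 54.4%. Gaps of 10 to 50 kb numbered 177 (27.3%) and held 22.5% of these bases. This class had the most gaps, but the classes differ in breadth, and that of up to 1 kb had 122.

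**Figure D4:**
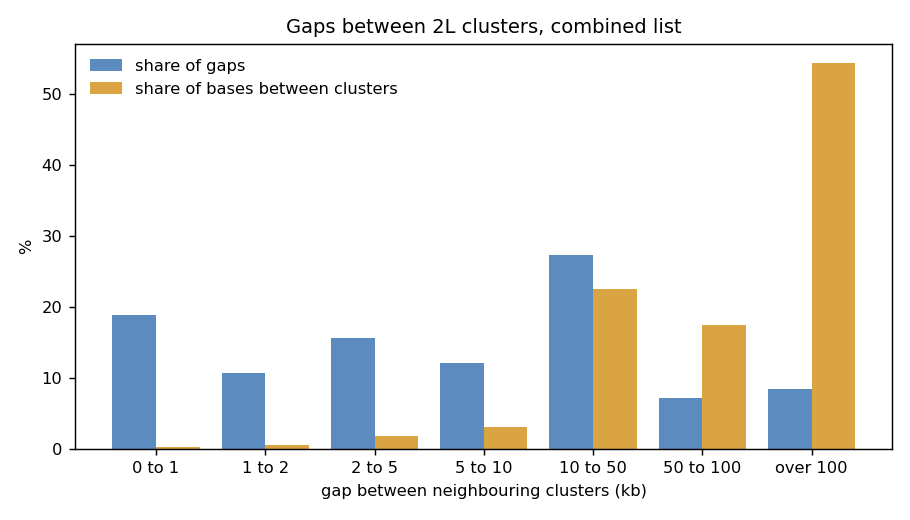
Gaps between neighbouring clusters of 2L in the combined list by length class (kb), as a share of the 648 gaps and as a share of the bases between clusters (both in %). Gaps up to 1 kb are 18.8% of gaps and 0.253% of bases, while those over 100 kb are 8.49% of gaps and 54.4% of bases.

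Some gaps were very short. The shortest was 3 bp, in front of the widest cluster of the arm, and 25 gaps of the combined list were at most 100 bp. Of these 25, 1 was bridged by a replicate 1 cluster and 5 by a replicate 2 cluster. Replicate 1 had 18 gaps of that length, of which 13 were bridged by a combined cluster and 7 by a replicate 2 cluster. Replicate 2 had 16, of which 12 were bridged by a combined cluster and 6 by a replicate 1 cluster. Most of the shortest gaps of each replicate were thus closed in the combined list, while few of those of the combined list were closed in a replicate.

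The lengths of neighbouring gaps were nearly unrelated, with a Spearman's rho of 0.0445 over 647 pairs, and so were the widths of neighbouring clusters, with 0.0834 over 648 pairs. Scores of neighbours had a rho of 0.137, and of 0.117 and 0.123 in replicates 1 and 2. At a distance of 2 clusters the rho of scores was -0.0131 in the combined list. These correlations are across clusters of a library, which are not independent, and are too weak to count as a finding.

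Most clusters had a near neighbour. In the combined list 444 (68.4%) had a cluster within 5 kb, 148 (22.8%) had the nearest at more than 5 and up to 20 kb, and 57 (8.78%) had none within 20 kb. The median scores of these classes were 1.61, 1.59 and 1.28, and their median widths were 5.28, 5.02 and 4.25 kb. In the replicates the median scores of the most remote class were 1.48 and 1.40, against 1.70 in both for clusters with a neighbour within 5 kb.

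Runs of close clusters were few. A run was taken as at least 5 clusters with gaps of at most 5 kb. The combined list had 15 of them on 2L with 98 clusters (15.1%), spanning 0.858 Mb or 3.73% of the arm, and holding 17.1% of the covered bases. Within runs 84.8% of the sequence was covered, a value partly set by the limit on gaps. Replicate 1 had 12 runs with 84 clusters and replicate 2 had 14 with 91. Of the 15, 11 overlapped a run of replicate 1 and 10 a run of replicate 2. Clusters in runs had a median width of 6.26 kb against 4.97 kb for the rest, and a median score of 1.70 against 1.54. There were 0.652 runs per Mb on 2L, against 0.989 on the other long arms together, where 18.5% of the clusters were in runs. The other arms differed among themselves: the share of clusters in runs was 15.3% on 3L and 15.8% on 3R, near that of 2L, and 20.5% on 2R and 22.6% on X. Their runs per Mb were 0.815, 0.788, 1.28 and 1.16 in the same order. In the replicates the values per Mb were 0.521 and 0.608 on 2L, against 0.958 and 0.885.

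The runs with the most clusters on 2L lay side by side, and they were also the longest. The run from 10198154 to 10348978 had 17 clusters over 151 kb and was covered to 83.2% ± 0.524 (SD, n = 2). After a gap of 7381 bp the run from 10356360 to 10442326 followed, with 11 clusters over 86.0 kb, covered to 86.8% ± 1.36 (SD, n = 2). Together they had 28 clusters in each of the 3 lists, over 244 kb. This was 1.06% of the arm with 4.31% of its clusters. Scores there ran from 0.290 to 2.47, so strong and weak clusters stood next to each other, and 19 of the 28 were above the 2L median. The cluster at 10280564, which has a score among the 5 highest of the arm, was among them.

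This densely marked stretch bordered on long empty ones. On the telomere side an empty stretch of 184 kb ended directly at its first cluster. On the centromere side, after 89.5 kb with 6 clusters, an empty stretch of 172 kb began. All of these lie between 10 and 11 Mb, the window that had the highest coverage and was empty over much of its length.

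**Figure D5:**
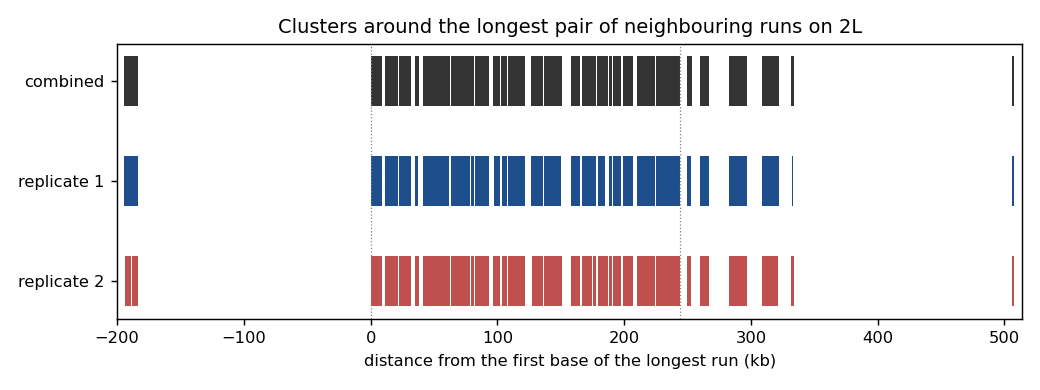
Clusters of the combined list and of each replicate around the longest pair of neighbouring runs on 2L, by distance from the first base of the longest run (kb), with dotted lines at the first and last base of the pair. All 3 lists have 28 clusters between the lines, and the 184 kb to the left are empty in each.

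The other runs had fewer clusters. The third by number had 7 clusters over 42.3 kb, from 18936778 to 18979074, covered to 70.8% ± 0.246 (SD, n = 2). The fourth had 6 clusters over 59.0 kb, from 21119856 to 21178878, and the fifth had 6 over 48.7 kb, from 10964088 to 11012810. Their coverage was 79.9% ± 0.896 and 85.6% ± 0.446 (SD, n = 2 each). The chain of the fourth reached only 4 clusters in each replicate, while the fifth had 7 in each. Several runs with fewer clusters were longer than the third, as 5 runs of 5 clusters each spanned 53.1 to 75.3 kb. Outside the runs, 205 clusters (31.6%) had no neighbour within 5 kb, 78 chains were pairs and 59 had 3 or 4 clusters.

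Long empty stretches took up 44.2% of 2L in the combined list. There were 55 of at least 100 kb, with a sum of 10.2 Mb and a median of 165 kb, and 17 of them reached 200 kb. Replicate 1 had 57 and replicate 2 had 56. None of the 55 held a whole replicate cluster. In 27 no base lay in a cluster of either replicate, and in the others only edges of flanking clusters entered, by at most 122 bp. Conversely, 9 of the long stretches of replicate 1 and 4 of those of replicate 2 held a weak cluster that was called in the combined list.

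The longest empty stretch, 15771427 to 16172147, was 401 kb. The next were 14619353 to 15005155 (386 kb), 17603337 to 17963447 (360 kb), 21762801 to 22121379 (359 kb) and 3875299 to 4185185 (310 kb). Then came 18159175 to 18440825 (282 kb), 11526207 to 11792083 (266 kb), 16918221 to 17169549 (251 kb), 14366231 to 14616119 (249.9 kb) and 20097683 to 20344589 (247 kb). Of these 10, 6 had their midpoint in the stretch from 13806927 to 18409235, the least covered of the 5. Some of them began beside a high-scoring cluster. The stretch of 251 kb began at the end of the cluster of 27.3 kb described above, which scored 2.20. That of 310 kb began beside a cluster of 7.74 kb with replicate scores of 2.38 and 2.28.

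Other long stretches were bounded by weak clusters, so the place where they end depends on a weak call. The stretches of 249.9 and 386 kb were separated by the cluster at 14616120 to 14619352 (3.23 kb), found in both replicates with scores of 0.433 and 0.477. The stretch of 360 kb began at a cluster of 1.72 kb with a score of 0.194, found in neither replicate. The cluster before that one, found in both replicates, lay 8.91 kb away, so this stretch would be little longer without the weak call. The 104 clusters beside long empty stretches had a median score of 1.47, against 1.59 for the other 545. In the replicates the medians were 1.62 and 1.57 beside them, against 1.65 and 1.66 for the others.

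Lone clusters were defined as those with at least 50 kb free of clusters on both sides. There were 21 on 2L (3.24% of its clusters), against 10 on 2R (1.27%), 15 on 3L (2.01%), 12 on 3R (1.35%) and 15 on X (2.01%). Of the 21, 17 were found in both replicates, 3 in a single replicate and 1 in neither, and 9 lay in the fourth stretch of the arm. Their widths ran from 1.42 to 12.7 kb with a median of 5.08 kb, close to that of all 2L clusters, and their median score was 1.25.

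Some lone clusters scored high. The strongest was 13894564 to 13904544 (9.98 kb), with replicate scores of 2.40 and 2.38 and with 58.9 and 59.6 kb free on its sides. The next were 3867560 to 3875298, described above, and 2572592 to 2585312 (12.7 kb), which replicate 2 called in pieces. The most remote among those found in both replicates were 14616120 to 14619352, with 249.9 and 386 kb free, and 17169550 to 17174630, with 251 and 194 kb free and scores of 0.864 and 0.919. The cluster at 17963448 to 17975550 was wide at 12.1 kb but scored only 1.31 and 1.29, with 360 and 152 kb free. At the low end, 6 lone clusters scored under 0.5 in the combined list, among them the 4 not found in both replicates. The 14 lone clusters found in both replicates with a combined score under 2 began between 735770 and 17963448. Their combined scores ran from 0.308 to 1.93.

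The replicates placed the 2L clusters alike. In replicate 1, 628 of 636 clusters (98.7%) shared at least 1 bp with a cluster of replicate 2, and in replicate 2, 631 of 649 (97.2%) shared at least 1 bp with one of replicate 1. The lists shared 3.97 Mb of the 4.16 Mb in either, a Jaccard index of 95.4%. In 586 pairs with no further overlap, the median shift between replicates was 59 bp at the start and 67 bp at the end. Both boundaries were within 100 bp in 269 of these pairs (45.9%). The largest shift was 2771 bp, at 4525560 to 4529748 of replicate 1, which began at 4528331 in replicate 2. Scores of the pairs differed by a median of 0.0712 and by at most 0.347.

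Of the 649 combined clusters, 600 (92.4%) were found in both replicates, 6 in replicate 1 only, 17 in replicate 2 only and 26 in neither. All clusters of either replicate were found in the combined list. All 554 clusters that scored over 0.6 were found in both replicates, as were 46 of the 95 at or below that score, a limit set with these scores known. Those in neither had a median width of 1.40 kb and a median score of 0.368, and none scored above the 2L median. The share in neither was 4.01% on 2L, against 5.20% on 2R, 3.88% on 3L, 3.61% on 3R and 5.35% on X.

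Few clusters were seen in only 1 of the replicates, and their scores were low. Replicate 1 had 8, whose median score was 0.572, against 1.65 for the clusters it shared. Replicate 2 had 18, with 0.573 against 1.67. The highest-scoring of replicate 1 were 8025632 to 8027642 (0.681), 6803185 to 6804597 (0.662), 5859589 to 5861437 (0.586), 4479089 to 4480681 (0.581) and 21363436 to 21365068 (0.563). Those of replicate 2 were 3792881 to 3795153 (0.712), 21727906 to 21730003 (0.650), 8666652 to 8668058 (0.630), 1701428 to 1702829 (0.628) and 22969947 to 22971623 (0.615). These named clusters began either from 1701428 to 8666652 or from 21363436 onwards. Lower-scoring ones lay between, as at the combined clusters beginning at 13964138 (replicate 2 only) and 18136404 (replicate 1 only). The last of those named is the cluster nearest to the centromere.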

How the data were processed

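ChIP-seq of H3K36me3 gave 2 precipitated and 2 input libraries, and 3 lists of clusters were analysed: replicate 1, replicate 2 and the replicate set. Per the file headers, positions are on FlyBase release 5. The enrichment score is the authors' own deposited value, of unknown scale. It was used to describe and rank clusters within a list. Scores of overlapping clusters were also set side by side between lists, and whether the lists share a scale is not stated. The submitters' processing notes name Bowtie 0.12.7, with no role. These sources name no cluster caller or threshold and give neither read depth nor how the replicate set was made, so no counting interval was computed. Input libraries had no list analysed here. All 649 first and last bases of the 2L clusters in the combined list were even numbers, against 348 of 636 first bases in replicate 1 and 318 of 649 in replicate 2, so its positions follow a grid of 2 bp.

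Enriched clusters on 2L were taken as deposited, with no filter. Arm lengths came from the file headers. A gap is the bases between neighbouring clusters, a run at least 5 clusters with gaps of at most 5 kb, and a long empty stretch at least 100 kb. Windows were 1 Mb, with a last window kept if it had at least 50% of that size. Overlap was at least 1 bp. Positions were named by rank: the 5 highest and lowest scores, 5 widest clusters, 5 runs with most clusters, 10 longest empty stretches, 3 most and least covered windows, lone clusters, and the 5 highest-scoring clusters of each replicate alone. The members, limits and ranks were chosen with earlier results of these data known. The scripts were tested on 20 simulated lists and recovered the runs, empty stretches, covered length and shared clusters of all 20. Python 3.11.15, numpy 2.4.6 and scipy 1.17.1 were used. Alternatives were other lists, run gaps, stretch lengths, windows and overlaps, and the upper 50% of a list by score.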

Additional observations from a re-analysis of the deposited data

How the results depend on the processing

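With single replicates in place of the combined list, 2L had 636 to 649 clusters, covered 17.6% to 17.7% (18.5% combined), a median width of 4.95 to 5.06 kb, a median gap of 7.10 to 7.15 kb, 12 to 14 runs, 56 to 57 long empty stretches and a coverage range over windows of 29.25 to 29.27 points (29.29 combined). The difference of 2L from the other long arms was -2.61 to -2.51 points in single replicates and -2.72 in the combined list. Using the upper 50% of the combined list by score, 319 clusters remained, with 12.7% covered, a median width of 7.89 kb and a median gap of 17.9 kb. There were 4 runs and 61 long empty stretches. The difference from the other arms was then -2.35 points in the combined list and -2.40 as the mean of the replicates. Runs numbered 5 with gaps up to 2 kb and 25 with gaps up to 10 kb, against 15. Empty stretches numbered 101 at 50 kb or more and 17 at 200 kb or more, against 55. The range over windows was 47.3 points in windows of 500 kb and 16.1 in windows of 2 Mb. The share found in both replicates, 92.4%, was 88.7% when the replicate lists were likewise reduced to their own upper 50%, which removes strong clusters near each limit from only some of the lists. With a reciprocal overlap of 50%, 90.9% of clusters were found in both replicates. Replicate 2 had as many clusters as the combined list, 649, but lower coverage. The cause of these shifts was not tested. No paired analysis was possible because no list of the input libraries was analysed here; this concerns precipitated against input libraries, while 2L and the other arms were compared within each precipitated library. Unknown read depth and mappability limit what an empty stretch shows: the mark was not called there, and its absence was not measured.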

Other observations

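The assembled heterochromatin next to 2L, a separate sequence of 0.369 Mb named 2LHet, carried 3 clusters in every list and its coverage was 2.67% in the combined list, against 2.25% and 2.56% in replicates 1 and 2. The cluster at 166098 to 169542 had scores of 1.66 and 1.84 in replicates 1 and 2, near the 2L medians of 1.64 and 1.65. The others began at 18440 and 34730 and had combined scores of 0.801 and 0.936.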
